A study of Mus musculus with 24 samples.

Results

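The cyclooxygenases and the enzymes around them, which release arachidonic acid and turn it into prostanoids, were followed across the aortas of mice fed a cyclooxygenase-2 inhibitor or plain chow. The genes were chosen by symbol, as the rows of the count table named Pla2g4a, Ptgs1, Ptgs2, Ptges, Ptges2, Ptges3, Ptgis, Tbxas1, Ptgds and Hpgds. Each symbol had 1 row, giving 10 of 25941 genes. RNA-seq of the thoracic aorta covered 24 libraries in 3 groups of 8: celecoxib at 100 mg/kg/day in chow, rofecoxib at 50 mg/kg/day in chow, and control mice on chow with no drug added. Feeding lasted 3 weeks, and the doses of the drugs differed. The mice were wild-type adult C57BL/6 males aged 10 to 12 weeks, and all received an intraperitoneal injection of interleukin-1β (10 ug/kg) 4 h before the tissue was taken at zeitgeber time 11, that is 11 h after lights on. Control mice were therefore also stimulated, no unstimulated group was analysed here, and a value in control libraries is a value under interleukin-1β.

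Prostanoids are lipid signals made on demand. A phospholipase frees arachidonic acid from membranes, a cyclooxygenase converts it to the unstable intermediate PGH2, and a terminal synthase turns PGH2 into PGE2, prostacyclin, thromboxane or PGD2. Cyclooxygenase-1 is made steadily in most cells, while cyclooxygenase-2 is induced by cytokines such as interleukin-1β. In the vessel wall prostacyclin relaxes smooth muscle and restrains platelets, and thromboxane does the opposite. Celecoxib, which carries a sulfonamide group, and rofecoxib, which carries a methylsulfone, both block the cyclooxygenase-2 enzyme in preference to cyclooxygenase-1. They act on the protein, so the transcript of Ptgs2 is no readout of whether the enzyme was inhibited.

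The libraries held 21668798 to 21700121 counted reads, a spread of 0.145%; whether totals were made alike before deposit is not given in the sources used here. All 10 genes passed the filter on low counts together with 14528 genes in all, and none had a library at 0 reads. The tissue carried abundant smooth muscle transcripts, with Acta2 averaging 12600 CPM in rofecoxib libraries and 13600 CPM in control libraries, where CPM is the read count scaled to library size by edgeR's trimmed mean. Endothelial (Pecam1, Vwf), fibroblast (Col1a2, Dcn) and macrophage (Mertk, Lyz2) markers were all present. Fat markers were present too, with Ucp1, the defining gene of brown fat, averaging 486 CPM in rofecoxib libraries and 213 CPM in control libraries. Markers of mesothelium were low, none of the 7 passing the filter. Their median summed level was 0.482 CPM in celecoxib, 0.711 in rofecoxib and 0.601 in control libraries. The highest library of each group reached 8.57, 2.46 and 3.21 CPM.

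The level of the 10 genes spanned more than 3 orders of magnitude. To set genes beside each other, CPM was divided by exon length in kilobases. That length merged all annotated exons of a gene over its transcripts, from 2217 bases for Ptges3 to 9094 for Tbxas1. A gene with many alternative exons is therefore placed lower than by the length of 1 transcript. In control libraries Ptgis stood first at 370.4 CPM per kilobase, followed by Ptges3 at 69.2. Ptgs2 (29.6) and Pla2g4a (29.3) came next, and their libraries overlapped, so their order was not resolved. Ptges (5.80) and Ptges2 (3.64) overlapped likewise, Ptgs1 stood apart at 2.04, and the libraries of Ptgds (0.303), Tbxas1 (0.122) and Hpgds (0.0487) ran into each other at the bottom. In rofecoxib and celecoxib libraries the order was the same except that Pla2g4a stood before Ptgs2, again with overlap. The vessel wall thus carried much more messenger RNA for prostacyclin synthase than for thromboxane synthase in every group, and under interleukin-1β the level per kilobase of Ptgs2 exceeded that of Ptgs1.

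**Figure D1:**
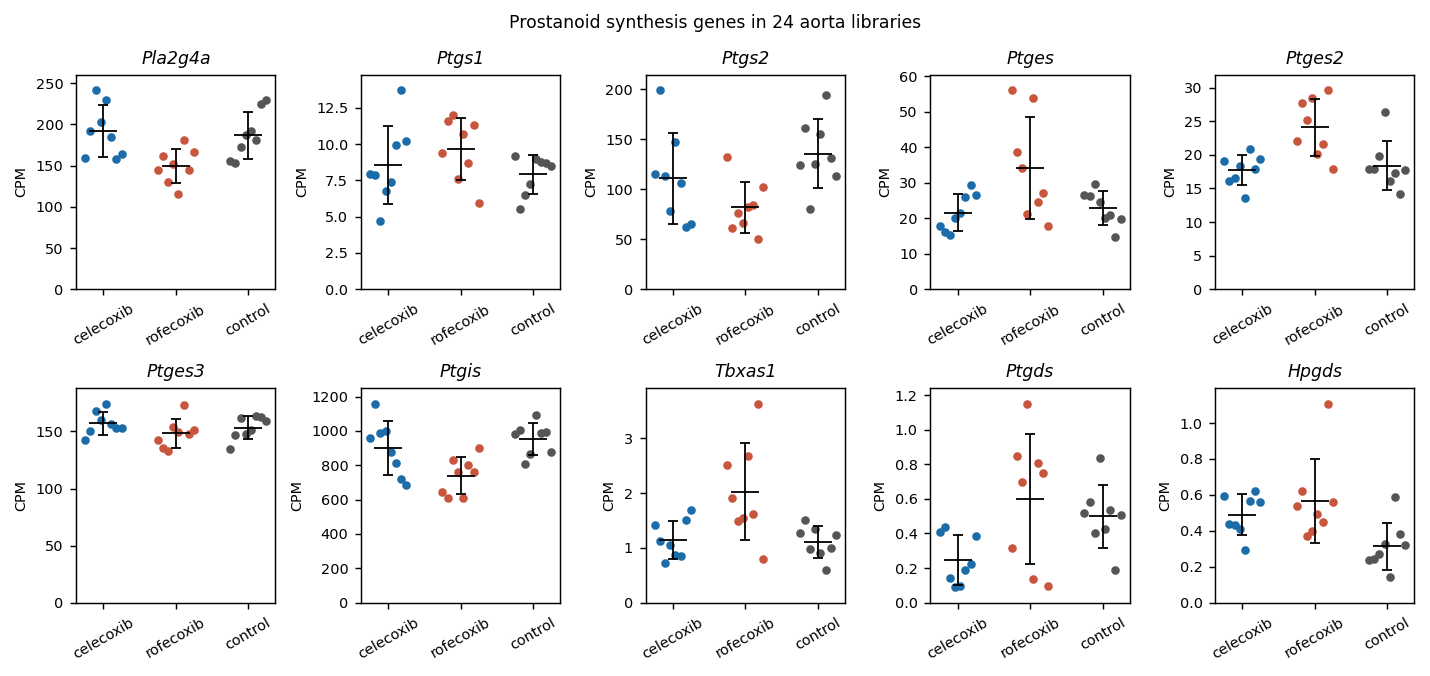
CPM of the 10 genes in each library (points, in replicate order from left to right), with the group mean and SD (bar and whiskers, n = 8), for celecoxib, rofecoxib and control; each panel has its own linear axis starting at 0. Tbxas1 ran between 0.796 and 3.63 CPM in rofecoxib libraries and between 0.586 and 1.51 CPM in control libraries, and for all 10 genes some libraries of both groups overlapped.

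Of the 10 genes, 5 passed edgeR's quasi-likelihood test between rofecoxib and control (adjusted p under 0.05, Benjamini-Hochberg over all 14528 genes). Tbxas1, Hpgds and Ptges2 rose, and Ptgs2 and Ptgis fell. Hpgds passed the filter on low counts mainly through the drug libraries, where it was high, so its call carries less weight. Over all genes tested, 6.94% were called in that comparison. At an unadjusted p under 0.05 the count was 7 of 10, beside 28.2% of all genes, and the 2 further genes were Pla2g4a and Ptges. Between celecoxib and control 0 of 10 passed edgeR's test, beside 0.0344% of all genes; DESeq2 and limma voom also called 0 of them. At an unadjusted p under 0.05 edgeR gave 2 of 10, Ptgds and Hpgds, beside 13.6% of all genes. Ptgds passed the filter on low counts only through rofecoxib and control libraries, where it was high, so its value with celecoxib carries less weight. Celecoxib and rofecoxib, at their unequal doses, differed in 2 of 10 genes, Pla2g4a (higher with celecoxib) and Ptges2 (lower), beside 4.89% of all genes. At an unadjusted p under 0.05 that count was 6 of 10, beside 23.0%. No gene of the 10 had groups that did not overlap at all, in any comparison; such complete separation occurred in 0.785% of all genes for rofecoxib against control, 0.234% for celecoxib against control and 0.0551% for celecoxib against rofecoxib. Both drug groups were compared with the same 8 control libraries. The labels number the libraries as replicates without saying that each came from its own mouse, so the p-values measure the spread between libraries. Library preparation took 3 days, and since the day of each library is not given, a batch by day could not be checked.

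The calls stood close to the threshold. Leaving out 1 library at a time, the count between rofecoxib and control ranged between 0 and 7 of 10. It was 0 without rofecoxib replicate 2 or 7 or control replicate 1, 2, 5 or 7, and 7 without rofecoxib replicate 8, which held the group's lowest CPM of Ptgs1, Ptges, Ptges2, Tbxas1 and Ptgds and its highest of Ptgis. The count was 0 of 10 within replicates 1 to 4 alone, within replicates 5 to 8 alone, without a filter on low counts, and with marker levels of brown fat and skeletal muscle, of fat, macrophages and Schwann cells, or of smooth muscle and endothelium as covariates. The direction of the 5 called genes was the same in each of these fits that tested them. The count between celecoxib and rofecoxib ranged between 0 and 6 of 10 on leaving out 1 library. It was 0 without celecoxib replicate 2, 3, 4 or 5 or rofecoxib replicate 1, 2, 3, 4 or 7, and 6 without rofecoxib replicate 8.

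**Figure D2:**
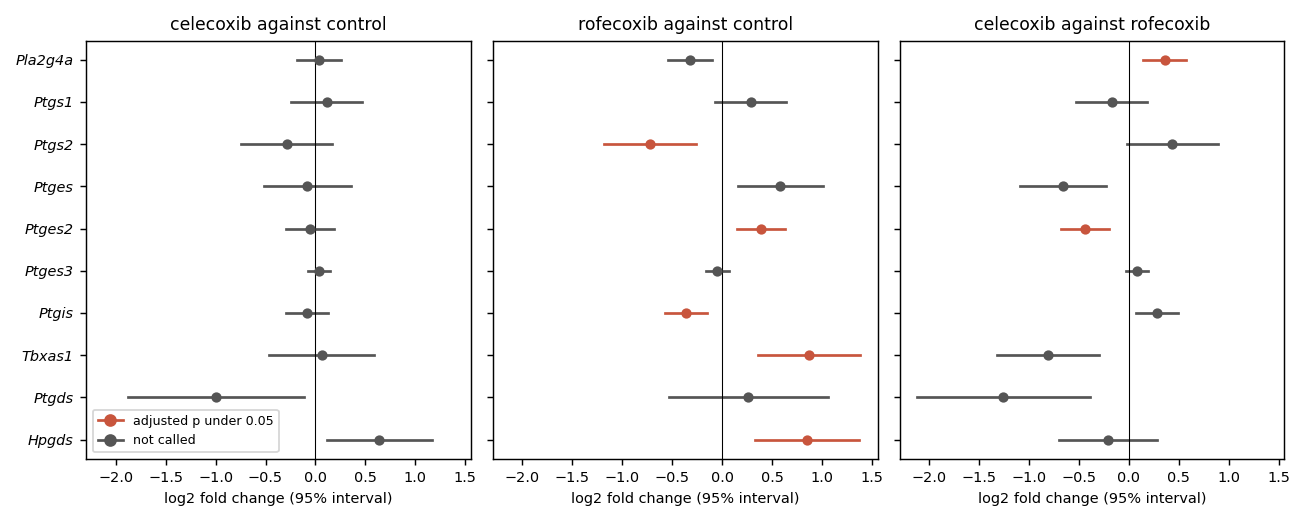
Log2 fold change (point) and 95% interval (line) of the 10 genes in celecoxib against control, rofecoxib against control and celecoxib against rofecoxib, from edgeR's fit over all 24 libraries, n = 8 per group; red marks an adjusted p under 0.05. The 5 red genes of the middle panel lie on both sides of 0, and no gene is red in the left panel.

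Release of arachidonic acid comes first in the pathway. Pla2g4a (ENSMUSG00000056220, mm9 chr1:151676546-151808622) codes for cytosolic phospholipase A2, which cuts arachidonic acid out of phospholipids once calcium rises. It had a lowest, median and highest level of 158, 189 and 241 CPM in celecoxib libraries, 115, 148 and 181 CPM in rofecoxib libraries, and 153, 184 and 230 CPM in control libraries. Rofecoxib libraries were the low ones, 5 of 8 lying below every control library and 5 of 8 celecoxib libraries lying above every rofecoxib library. Celecoxib libraries averaged 192 ± 31.6 CPM and rofecoxib libraries 149 ± 21.1 CPM (SD, n = 8 each), which is 0.36 in log2 terms (SE 0.11, edgeR adjusted p = 0.0496). Against control (187 ± 28.5 CPM, n = 8), rofecoxib gave -0.32 (SE 0.11, edgeR adjusted p = 0.0596), which was called only without rofecoxib replicate 6 or 8 among the fits that left out 1 library (adjusted p of 0.0447 and 0.0368). Celecoxib gave 0.03 against control (95% interval -0.18 to 0.25). The call between the drugs was kept in 8 of the 24 fits that left out 1 library. Removing celecoxib replicates 2 to 6, rofecoxib replicates 1 to 5 or 7, or control replicate 1, 2, 3, 5 or 6 ended it, with edgeR adjusted p of 0.0527 to 0.114. It was also lost with library size scaling and with limma voom (adjusted p of 0.0641 and 0.0624), and in all it was kept in 5 of 14 other settings. With only the celecoxib and rofecoxib libraries in the fit the edgeR adjusted p was 0.0734, and with fat, macrophage and Schwann cell marker levels as covariates the difference was 0.03 (edgeR adjusted p = 1). It was 0.245 with brown fat and skeletal muscle covariates and 0.265 with smooth muscle and endothelial covariates (edgeR adjusted p of 0.491 and 0.735).

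Among the other phospholipases and lipases that release arachidonic acid, 15 of 24 listed genes could be tested. With rofecoxib 2 rose and 0 fell, with a median log2 fold change of 0.12 beside 0.02 over all genes. Mgll, the monoacylglycerol lipase gene, averaged 265 ± 48.6 CPM with rofecoxib and 201 ± 27.2 CPM in control (SD, n = 8 each), or 0.40 in log2 terms (SE 0.10, edgeR adjusted p = 0.0224). Plaat3, listed in the table as Pla2g16 and coding for the phospholipase of fat cells, averaged 136 ± 23.3 CPM with rofecoxib and 105 ± 17.0 CPM in control, a difference of 0.38 (SE 0.11, edgeR adjusted p = 0.0408). Both genes are strongly expressed in fat. Of 11 general fat markers, all tested, 3 rose with rofecoxib (Fabp4, Pparg and Lep), and their summed level ran from 1980 to 6230 CPM in rofecoxib libraries and 1920 to 5430 CPM in control libraries. With fat, macrophage and Schwann cell marker levels as covariates, the difference was 0.21 for Mgll and 0.10 for Plaat3 (edgeR adjusted p of 0.275 and 0.438). The cause of these smaller values, and the part of fat in them, was not tested. With 1 library left out the Mgll call was kept in 24 of 24 fits and the Plaat3 call in 13. Over 14 other settings the Mgll call was kept in 9 and the Plaat3 call in 6. With celecoxib 0 of 15 passed edgeR's test and 0 reached an unadjusted p under 0.05; Pla2g6 had 12.6 ± 2.30 CPM with celecoxib against 14.4 ± 1.8 CPM in control (adjusted p = 0.412), and Pla2g2d 0.445 ± 0.165 CPM against 0.646 ± 0.218 CPM (adjusted p = 0.456).

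Of the cyclooxygenase genes, Ptgs2 was called with rofecoxib and Ptgs1 was not. Ptgs2 (ENSMUSG00000032487, mm9 chr1:151947052-151955342), the inducible cyclooxygenase gene and the one whose protein the drugs target, had a lowest, median and highest level of 62.2, 109 and 199 CPM in celecoxib libraries, 50.7, 79.2 and 133 CPM in rofecoxib libraries, and 79.9, 128 and 194 CPM in control libraries. The groups overlapped widely, although 4 of 8 rofecoxib and 3 of 8 celecoxib libraries lay below every control library. With rofecoxib Ptgs2 fell, to 0.605 of its control level, or -0.72 in log2 terms (SE 0.22, edgeR adjusted p = 0.0492). Celecoxib gave -0.29 (95% interval -0.75 to 0.17, edgeR adjusted p = 0.568). The drugs differed by 0.43 (95% interval -0.02 to 0.89, edgeR adjusted p = 0.245), so a difference between them was not shown. The rofecoxib call was kept in 8 of 24 fits with 1 library left out. The 16 libraries whose removal ended it were celecoxib replicates 1, 3, 4 and 6, all rofecoxib replicates but 1 and 8, and all control replicates but 3 and 4, with edgeR adjusted p of 0.0517 to 0.101. It was also lost with marker levels as covariates, at -0.52 with brown fat and skeletal muscle, -0.50 with fat, macrophage and Schwann cell, and -0.47 with smooth muscle and endothelial markers (edgeR adjusted p of 0.188, 0.337 and 0.469). Ptgs2 had 56275 reads over all libraries, and the gene 7530420F21Rik that overlaps it had 685.

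Ptgs2 varied widely within each group: its highest library exceeded its lowest by 3.20-fold with celecoxib, 2.62-fold with rofecoxib and 2.43-fold in control. The lowest control library, replicate 3, stood at 79.9 CPM, near the rofecoxib median. Ptgs1 (ENSMUSG00000047250, mm9 chr2:36085744-36107994), the constitutive cyclooxygenase gene, had a lowest, median and highest level of 4.68, 7.90 and 13.7 CPM in celecoxib libraries, 5.94, 10.0 and 12.0 CPM in rofecoxib libraries, and 5.54, 8.59 and 9.16 CPM in control libraries. Its groups overlapped, with 5 of 8 rofecoxib libraries and 3 of 8 celecoxib libraries above every control library. The log2 fold change was 0.28 for rofecoxib against control (95% interval -0.07 to 0.64, edgeR adjusted p = 0.278) and 0.11 for celecoxib against control (-0.24 to 0.47, adjusted p = 0.785).

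Within a library the ratio of Ptgs2 to Ptgs1 does not depend on scaling. Relative to the control mean, its log2 value averaged -0.42 ± 0.887 with celecoxib and -1.0 ± 0.663 with rofecoxib, while control libraries spread by an SD of 0.415 (n = 8 each). The lowest control library was at -0.45; 4 of 8 celecoxib and 6 of 8 rofecoxib libraries were lower than that. These ratios were chosen with the fold changes known and are given as a description.

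The promoter of Ptgs2 is shown because Ptgs2 codes for the protein that both drugs target and was called with rofecoxib. In the RefSeq promoter of GRCm38.p6, plus strand, chr1:150099781-150100080, 250 bases before to 50 after the start, capitals mark 4 matches: a GC box (GGGCGG, -170 to -165), a C/EBP palindrome (TTGCGCAA, -69 to -62), a CRE core (TGACG, read on the minus strand, 14 to 18) and an E-box (CACGTG, 17 to 22) that overlaps the CRE core.
Ptgs2: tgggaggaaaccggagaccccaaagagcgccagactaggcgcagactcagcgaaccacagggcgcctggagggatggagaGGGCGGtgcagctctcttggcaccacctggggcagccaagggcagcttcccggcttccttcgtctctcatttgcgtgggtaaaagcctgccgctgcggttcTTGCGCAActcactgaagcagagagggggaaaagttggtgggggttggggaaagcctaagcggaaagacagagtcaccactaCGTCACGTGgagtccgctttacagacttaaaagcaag
Both strands were searched for these letters, for PU.1 (GAGGAAGT), for AP-1 (TGACTCA) and for the core promoter box (TATAAA). Of 32851 RefSeq promoter windows of this length, 0.183% held the C/EBP letters, 7.15% the E-box, 20.8% the CRE core and 35.7% the GC box. A match is a string of letters, and binding was not measured.

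Of 17 genes listed as regulators of Ptgs2 transcription or message stability, all were tested. With rofecoxib 1 rose and 2 fell, with a median log2 fold change of -0.16 beside 0.02 over all genes. Cebpb, which codes for a C/EBP factor, averaged 64.5 ± 16.2 CPM with rofecoxib and 95.3 ± 20.6 CPM in control, a difference of -0.56 (SE 0.17, edgeR adjusted p = 0.0444). With celecoxib, where Ptgs2 gave -0.29, Cebpb averaged 55.1 ± 14.2 CPM against the same control libraries, a difference of -0.79 (SE 0.17, edgeR adjusted p = 0.0874) that was not called. Dusp1, a phosphatase that switches off stress kinases, averaged 119 ± 16.2 CPM with rofecoxib and 183 ± 16.3 CPM in control, a difference of -0.62 (SE 0.08, edgeR adjusted p = 0.000464). Mapk14, the p38α kinase gene, averaged 72.5 ± 10.7 CPM with rofecoxib and 59.2 ± 5.56 CPM in control, a difference of 0.29 (SE 0.08, edgeR adjusted p = 0.0386). With celecoxib 1 of 17 fell and 0 rose, with a median of -0.13 beside 0.00 over all genes; it was Dusp1, at 134 ± 15.8 CPM with celecoxib against 183 ± 16.3 CPM in control, a difference of -0.45 (SE 0.08, edgeR adjusted p = 0.0434). In fits that left out 1 library, added after the data had been seen, the Dusp1 call was kept in 24 of 24 with rofecoxib. With celecoxib it was kept in 7 of 24, those without celecoxib replicate 2 or 3, rofecoxib replicate 3, 5, 7 or 8, or control replicate 7, and the others gave edgeR adjusted p of 0.0501 to 0.153. Both used the same control libraries. The rofecoxib calls of Cebpb and Mapk14 were kept in 14 and 15 of 24, with edgeR adjusted p up to 0.0951 and 0.0866.

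Other genes that interleukin-1 induces were listed to set Ptgs2 beside its stimulus. Of 15 tested, 0 passed edgeR's test with celecoxib, 5 reached an unadjusted p under 0.05, and all 15 had a log2 fold change below 0, with a median of -0.54 beside 0.00 over all genes. Cxcl2, a neutrophil chemokine gene, averaged 9.66 ± 8.78 CPM with celecoxib and 32.7 ± 31.1 CPM in control (edgeR adjusted p = 0.245), and Il6, the interleukin-6 gene, 22.5 ± 17.2 CPM with celecoxib and 58.0 ± 35.5 CPM in control (adjusted p = 0.256). With rofecoxib 1 of 15 rose, 0 fell and 11 had values below 0, with a median of -0.47. The 1 that rose was Il1b, at 3.64 ± 1.75 CPM with rofecoxib against 1.55 ± 0.884 CPM in control, a difference of 1.23 (SE 0.33, edgeR adjusted p = 0.0313). The Il1b call was kept in 16 of 24 fits with 1 library left out and in 7 of 14 other settings. With fat, macrophage and Schwann cell covariates the difference was 0.37 (edgeR adjusted p = 0.503), and the cause of the smaller value was not tested. The mean level of the list tracked Ptgs2 among libraries of the same group, with r = 0.526 and rho = 0.546 over 24 libraries after group means were removed (permutation p = 0.00917 and 0.00781, adjusted p = 0.0410 and 0.0458 over 170 relations). Without the 2 libraries farthest from the median r was 0.642. Of 10 neutrophil markers 8 were tested. With celecoxib 0 of them passed edgeR's test, 5 reached an unadjusted p under 0.05 and all 8 were below 0 against control (median -0.84), while with rofecoxib 0 passed, 2 reached an unadjusted p under 0.05 and all 8 were above 0 (median 0.62). Their summed level ran from 12.2 to 43.2 CPM in celecoxib libraries, 24.9 to 144 CPM in rofecoxib libraries and 22.8 to 95.7 CPM in control libraries, and their part in the values of this list was not tested.

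PGE2 is made by 3 synthases. Ptges (ENSMUSG00000050737, mm9 chr2:30744789-30785585), the microsomal synthase gene that is induced together with cyclooxygenase-2, had a lowest, median and highest level of 15.3, 20.7 and 29.5 CPM in celecoxib libraries, 17.8, 30.6 and 56.0 CPM in rofecoxib libraries, and 14.7, 22.7 and 29.5 CPM in control libraries. In rofecoxib libraries 4 of 8 lay above every control library and the others lay inside the control range. The means were 34.1 ± 14.4 CPM with rofecoxib and 22.8 ± 4.76 CPM in control (SD, n = 8 each), or 0.58 in log2 terms (SE 0.21, edgeR adjusted p = 0.0770), which was not called. Without rofecoxib replicate 8, the lowest of its group, the edgeR adjusted p was 0.0285. Celecoxib gave -0.08 against control (95% interval -0.51 to 0.35) and -0.66 against rofecoxib (-1.09 to -0.23, edgeR adjusted p = 0.0594). The second of these was called without celecoxib replicate 7 or rofecoxib replicate 6 or 8 (edgeR adjusted p of 0.0444, 0.0477 and 0.0155).

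Ptges2 (ENSMUSG00000026820, mm9 chr2:32251214-32258461) codes for a synthase that is made steadily and bound to membranes. It had a lowest, median and highest level of 13.6, 18.1 and 20.9 CPM in celecoxib libraries, 17.9, 23.6 and 29.6 CPM in rofecoxib libraries, and 14.2, 17.8 and 26.4 CPM in control libraries. Rofecoxib libraries were the high ones, 3 of 8 lying above every control library, while 1 control library, replicate 4, stood at 26.4 CPM inside the rofecoxib range. Ptges2 rose with rofecoxib, averaging 24.1 ± 4.28 CPM against 18.4 ± 3.6 CPM in control, or 0.39 in log2 terms (SE 0.12, edgeR adjusted p = 0.0435). Celecoxib libraries averaged 17.7 ± 2.25 CPM, -0.44 relative to rofecoxib (SE 0.12, edgeR adjusted p = 0.0387) and -0.05 relative to control (95% interval -0.29 to 0.19). The call against control was kept in 11 of 24 fits with 1 library left out and ended on removing celecoxib replicate 1, 3 or 4, rofecoxib replicate 2, 3, 4 or 7, or control replicate 1, 2 or 5 to 8, with edgeR adjusted p of 0.0501 to 0.0967. The call between the drugs was kept in 15 of 24 and ended on removing celecoxib replicates 2 to 5 or rofecoxib replicates 1 to 4 or 7, with edgeR adjusted p of 0.0515 to 0.0884.

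The Ptges2 values moved with brown fat. All 9 brown fat markers were tested, and their summed level ran from 113 to 584 CPM in celecoxib libraries, 387 to 1930 CPM in rofecoxib libraries and 205 to 1230 CPM in control libraries. With rofecoxib 1 of the 9, Fabp3, passed edgeR's test, and all 9 had a log2 fold change above 0, with a median of 0.95. Among libraries of the same group Ptges2 tracked the mean level of these markers with r = 0.942 and rho = 0.943 over 24 libraries (permutation p = 1e-05 for each, the smallest that 100000 resamples can give, adjusted p = 0.00034 and 0.00085 over 170 relations). Without the 2 libraries farthest from the median r was also 0.942, and within the groups it was 0.939 with celecoxib, 0.965 with rofecoxib and 0.954 in control. With brown fat and skeletal muscle marker levels as covariates, the log2 fold change of Ptges2 with rofecoxib was 0.17 (edgeR adjusted p = 0.0995) and that between the drugs -0.09 (adjusted p = 0.562). With fat, macrophage and Schwann cell covariates they were 0.18 and -0.22 (edgeR adjusted p of 0.256 and 0.707). With smooth muscle and endothelial covariates they were 0.21 and -0.25 (edgeR adjusted p of 0.470 and 0.735). The rise of Ptges2 against control was thus smaller to a similar degree with each covariate set. The difference between the drugs was smallest in size with brown fat and skeletal muscle covariates. The cause of the smaller values was not tested. In pieces of tissue, more cells of a type and more RNA per cell cannot be told apart.

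The RefSeq promoter of Ptges2 (GRCm38.p6, plus strand, chr2:32395640-32395939) is shown beside that of Ptgs2 because both hold the E-box CACGTG, in capitals here at -77 to -72, while the genes were called in opposite directions with rofecoxib.
Ptges2: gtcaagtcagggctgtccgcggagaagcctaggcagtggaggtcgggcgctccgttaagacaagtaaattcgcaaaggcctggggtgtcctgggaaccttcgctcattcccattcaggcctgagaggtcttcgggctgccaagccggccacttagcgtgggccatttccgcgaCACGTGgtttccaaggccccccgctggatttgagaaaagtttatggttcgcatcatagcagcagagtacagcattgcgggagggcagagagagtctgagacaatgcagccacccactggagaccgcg
No other searched motif was matched in this window.

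Ptges3 (ENSMUSG00000071072, mm9 chr10:127495808-127514530) codes for the cytosolic synthase, also known as the chaperone partner p23. It was the steadiest of the 10 genes, with a coefficient of variation of 6.39% among celecoxib, 8.47% among rofecoxib and 6.67% among control libraries. Its lowest, median and highest levels were 143, 155 and 174 CPM in celecoxib libraries, 133, 149 and 174 CPM in rofecoxib libraries, and 135, 155 and 163 CPM in control libraries, so the groups lay almost on top of each other. The log2 fold change was -0.05 for rofecoxib (95% interval -0.16 to 0.06) and 0.04 for celecoxib (-0.08 to 0.15), against control. GENCODE lists a pseudogene copy of Ptges3, and Baz2a, which overlaps Ptges3, had 58066 reads beside its 79621, so the counts carry that uncertainty.

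Prostacyclin synthase and thromboxane synthase compete for the same substrate and make products with opposite actions on platelets and vessel tone. Ptgis (ENSMUSG00000017969, mm9 chr2:167017103-167066306), the prostacyclin synthase gene, had a lowest, median and highest level of 683, 916 and 1158 CPM in celecoxib libraries, 608, 760 and 899 CPM in rofecoxib libraries, and 808, 985 and 1093 CPM in control libraries. In rofecoxib libraries 6 of 8 lay below every control library. Ptgis fell with rofecoxib to 0.778 of its control level, averaging 739 ± 108 CPM against 951 ± 93.1 CPM in control (SD, n = 8 each), or -0.36 in log2 terms (SE 0.10, edgeR adjusted p = 0.0348). Celecoxib libraries spread more, averaging 899 ± 159 CPM: 2 of 8 lay below every control library and 1 above, and the log2 fold change was -0.08 (95% interval -0.29 to 0.13). The difference between celecoxib and rofecoxib was 0.28 (0.07 to 0.49, edgeR adjusted p = 0.0928), which was not called; it was called without celecoxib replicate 8 or rofecoxib replicate 8 (adjusted p of 0.0497 and 0.0335). The rofecoxib call was kept in 14 of 24 fits with 1 library left out and was lost without rofecoxib replicate 1, 2, 4, 5 or 7 or control replicate 1, 2, 5, 6 or 7, with edgeR adjusted p of 0.0521 to 0.0722.

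Ptgis moved with smooth muscle. All 10 smooth muscle markers were tested, their summed level running from 32200 to 45400 CPM in celecoxib libraries, 28300 to 42300 CPM in rofecoxib libraries and 29000 to 39400 CPM in control libraries. With rofecoxib all 10 had a log2 fold change below 0, with a median of -0.17, and 1, Synpo2, passed edgeR's test. Among libraries of the same group Ptgis tracked their mean level with r = 0.865 and rho = 0.877 over 24 libraries (permutation p = 1e-05 for each, the smallest possible, adjusted p = 0.00034 and 0.00085 over 170 relations), and r was 0.872 without the 2 farthest libraries. The relation held within each group, at 0.895 with celecoxib, 0.903 with rofecoxib and 0.861 in control. It was not the only one, since Ptgis also ran against endothelial, macrophage and neutrophil markers. Their r was -0.714, -0.645 and -0.619 (permutation adjusted p = 0.00397, 0.0180 and 0.0180 over 170 relations). Without the 2 farthest libraries r was -0.687, -0.562 and -0.629. With smooth muscle and endothelial marker levels as covariates, a fit added after the data had been seen, the log2 fold change of Ptgis with rofecoxib was -0.12 (edgeR adjusted p = 0.459). It was -0.192 with fat, macrophage and Schwann cell covariates and -0.325 with brown fat and skeletal muscle covariates (edgeR adjusted p of 0.293 and 0.136). The cause of the smaller values was not tested.

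Tbxas1 (ENSMUSG00000029925, mm9 chr6:38825201-39034786), the thromboxane synthase gene, was low in every library, at 12 to 82 reads. Its lowest, median and highest levels were 0.716, 1.09 and 1.68 CPM in celecoxib libraries, 0.796, 1.77 and 3.63 CPM in rofecoxib libraries, and 0.586, 1.12 and 1.51 CPM in control libraries. In rofecoxib libraries 6 of 8 lay above every control library, the reverse of Ptgis. Tbxas1 rose with rofecoxib by 1.83-fold, averaging 2.02 ± 0.883 CPM against 1.10 ± 0.294 CPM in control, or 0.87 in log2 terms (SE 0.25, edgeR adjusted p = 0.0365). Celecoxib gave 0.06 against control (95% interval -0.46 to 0.59) and -0.81 against rofecoxib (-1.32 to -0.30, edgeR adjusted p = 0.0551). That last difference was called without celecoxib replicate 7 or 8 or rofecoxib replicate 8 (adjusted p of 0.0470, 0.0456 and 0.0111). The rofecoxib call was kept in 15 of 24 fits with 1 library left out and was lost without rofecoxib replicate 1, 2, 5 or 7 or control replicate 1, 2, 5, 6 or 7, with edgeR adjusted p of 0.0513 to 0.0930. Hipk2, which overlaps Tbxas1 in the table, had 5889 reads beside its 750, and no strand setting of the counting is given in the sources used here.

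Tbxas1 moved with macrophages, a known source of this enzyme. All 11 macrophage markers were tested, their summed level running from 281 to 367 CPM in celecoxib libraries, 288 to 520 CPM in rofecoxib libraries and 328 to 404 CPM in control libraries. With rofecoxib 1 of them, Mrc1, rose and 1, Mertk, fell, and 10 of 11 had a log2 fold change above 0, with a median of 0.33. Among libraries of the same group Tbxas1 tracked their mean level with r = 0.855 and rho = 0.821 over 24 libraries (permutation p = 1e-05 and 2e-05, adjusted p = 0.00034 and 0.00102 over 170 relations). Without the 2 farthest libraries r was 0.754, and within groups it was 0.849 with celecoxib, 0.963 with rofecoxib and 0.565 in control. With fat, macrophage and Schwann cell marker levels as covariates, the log2 fold change with rofecoxib was 0.42 (edgeR adjusted p = 0.247). It was about as low, at 0.41, with smooth muscle and endothelial covariates, which hold no macrophage marker (edgeR adjusted p = 0.549). With brown fat and skeletal muscle covariates it was 0.72 (edgeR adjusted p = 0.156). The smaller value was thus not particular to macrophage markers, and its cause was not tested. Platelet markers, which mark another main source, were low, with a summed level of 22.5 to 37.8 CPM in rofecoxib libraries and 20.4 to 70.2 CPM in control libraries, and their relation to Tbxas1 gave r = 0.351 and rho = 0.356 (permutation p = 0.0744 and 0.0889, adjusted p = 0.178 and 0.184 over 170 relations). That r was 0.520 without the 2 farthest libraries, and within groups it was 0.482 with celecoxib, -0.05 with rofecoxib and 0.711 in control.

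**Figure D3:**
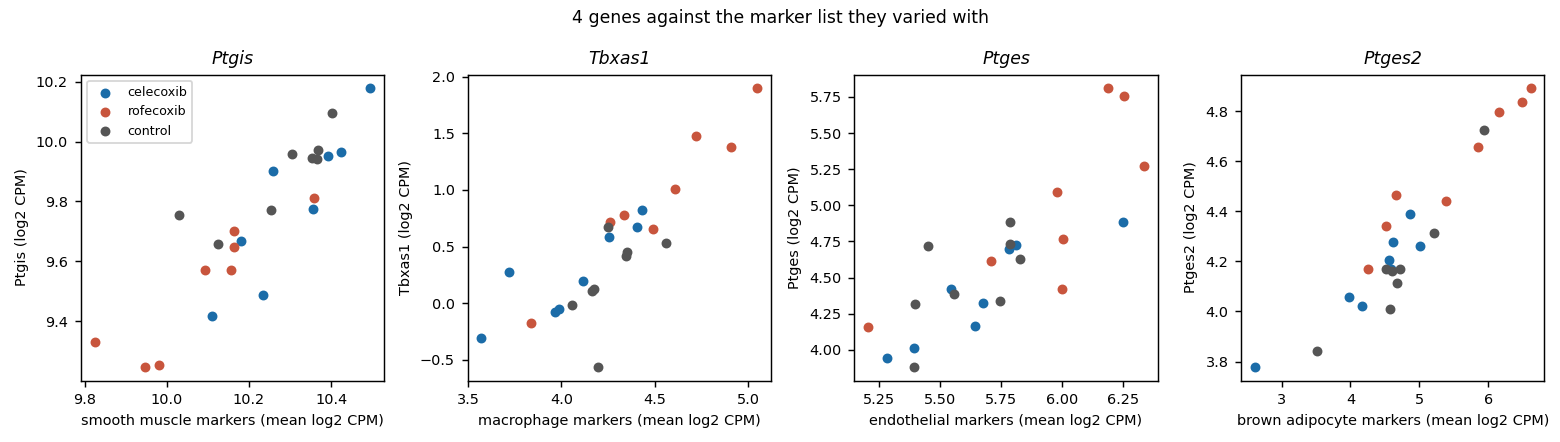
Log2 CPM of Ptgis, Tbxas1, Ptges and Ptges2 in each of 24 libraries (vertical axes) against the mean log2 CPM of smooth muscle, macrophage, endothelial and brown fat markers (horizontal axes), with celecoxib in blue, rofecoxib in red and control in grey. Each gene rises along its marker level within every colour, with r of 0.865, 0.855, 0.782 and 0.942 after group means were removed.

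The balance of the pair was also read within each library. Relative to the control mean, the log2 ratio of Ptgis to Tbxas1 averaged -0.14 ± 0.575 with celecoxib and -1.12 ± 0.785 with rofecoxib, while control libraries had an SD of 0.447 (n = 8 each). In rofecoxib libraries 7 of 8 were below every control library, and in celecoxib libraries 2 of 8 were. The pairs were chosen with the fold changes known, Ptgis lower and Tbxas1 higher with rofecoxib. These ratios are therefore a description and add no separate support. Tbxas1 also had only 12 to 82 reads a library. The 1 rofecoxib library above the control mean was replicate 8, at 0.31. The log2 ratio of Ptges to Ptgis averaged 0.01 ± 0.592 with celecoxib and 0.87 ± 0.790 with rofecoxib, with 4 of 8 rofecoxib libraries above every control library.

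**Figure D4:**
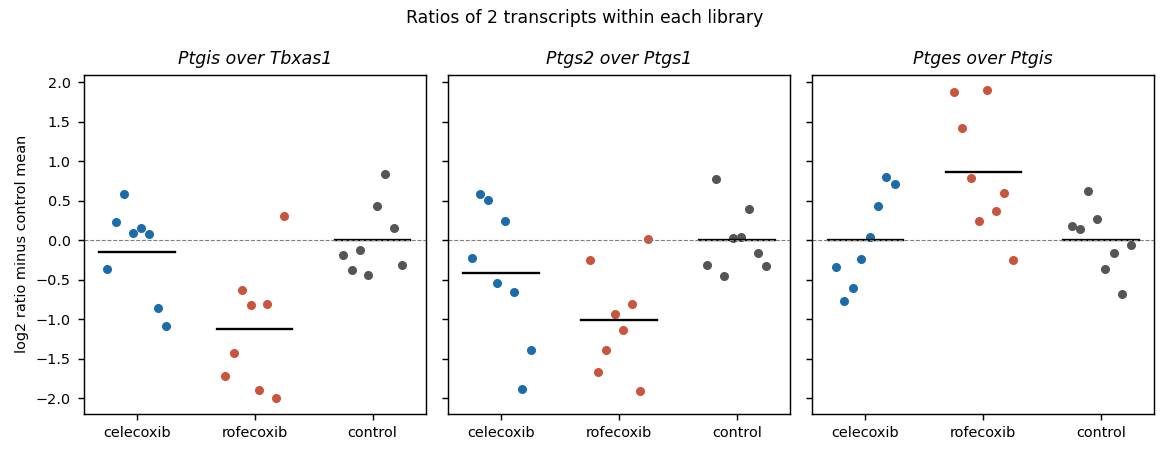
Log2 ratio of Ptgis to Tbxas1, Ptgs2 to Ptgs1 and Ptges to Ptgis within each library, as the difference from the control mean (dashed line at 0), with points for libraries and a bar for the group mean. For Ptgis over Tbxas1, 7 of 8 rofecoxib libraries lie below every control library. The pairs were chosen with the fold changes known, so the ratios are a description.

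The promoter of Tbxas1 (RefSeq, GRCm38.p6, plus strand, chr6:38918736-38919035) is shown for the clearest rise among the 10 genes. Its capitals mark the letters TATAAA at -11 to -6 and, read on the minus strand, at -13 to -8, which overlap each other.
Tbxas1: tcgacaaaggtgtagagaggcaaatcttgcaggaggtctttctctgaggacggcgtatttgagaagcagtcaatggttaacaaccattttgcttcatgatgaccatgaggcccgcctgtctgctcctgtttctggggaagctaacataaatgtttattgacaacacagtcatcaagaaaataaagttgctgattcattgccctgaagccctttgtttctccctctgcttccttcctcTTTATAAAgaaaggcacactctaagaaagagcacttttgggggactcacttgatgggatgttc
These letters occurred in 13.6% of all windows.

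PGD2, a mediator of mast cells and other immune cells, is made by a pair of unrelated enzymes. Ptgds (ENSMUSG00000015090, mm9 chr2:25322027-25325768), the lipocalin-type synthase gene, had only 2 to 26 reads a library and reached 10 reads in 10 of 24 libraries. Its lowest, median and highest levels were 0.0916, 0.205 and 0.438 CPM in celecoxib libraries, 0.0936, 0.724 and 1.15 CPM in rofecoxib libraries, and 0.191, 0.512 and 0.837 CPM in control libraries. By group it had 2 to 9 reads in celecoxib, 2 to 26 in rofecoxib and 4 to 18 in control libraries. Ptgds thus passed the filter on low counts only through rofecoxib and control libraries, where it was high. Its differences with celecoxib therefore carry less weight. Celecoxib libraries were the low ones, 4 of 8 lying below every control library. The log2 fold change was -0.99 for celecoxib against control (SE 0.43, edgeR adjusted p = 0.317), 0.26 for rofecoxib against control (SE 0.39, adjusted p = 0.676) and -1.26 for celecoxib against rofecoxib (SE 0.42, adjusted p = 0.0704), and none was called. The last was called without rofecoxib replicate 5 or 8 (edgeR adjusted p of 0.0389 and 0.0180). Like Ptges2, Ptgds tracked brown fat markers within groups (r = 0.769, rho = 0.684, permutation p = 6e-05 and 0.00086, adjusted p = 0.00127 and 0.0104 over 170 relations, r = 0.700 without the 2 farthest libraries).

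Hpgds (ENSMUSG00000029919, mm9 chr6:65067085-65095104), the haematopoietic synthase gene, had 3 to 25 reads a library and reached 10 reads in 11 of 24. By group it had 3 to 12 reads in control, 6 to 14 in celecoxib and 8 to 25 in rofecoxib libraries. It thus passed the filter on low counts mainly through the drug libraries, where it was high. Its lowest, median and highest levels were 0.290, 0.499 and 0.620 CPM in celecoxib libraries, 0.371, 0.515 and 1.11 CPM in rofecoxib libraries, and 0.142, 0.295 and 0.586 CPM in control libraries. The drug groups stood higher than control and close to each other, 2 of 8 libraries of each lying above every control library. Hpgds rose with rofecoxib by 1.8-fold, or 0.85 in log2 terms (SE 0.25, edgeR adjusted p = 0.0426). That call depends on the celecoxib libraries being in the fit, since with only rofecoxib and control libraries Hpgds failed the filter and was not tested. Celecoxib gave 0.64 (95% interval 0.11 to 1.17, edgeR adjusted p = 0.283), which was not called, and the drugs differed by -0.21 (-0.70 to 0.28). The rofecoxib call was kept in 14 of 24 fits with 1 library left out. Removing celecoxib replicate 4, rofecoxib replicate 1, 2 or 7, or control replicate 1, 2, 3, 5, 7 or 8 ended it, with edgeR adjusted p of 0.0511 to 0.109. Of 6 mast cell markers 4 were tested, and 2 of them, Tpsb2 and Cma1, rose with rofecoxib. Their summed level ran from 6.14 to 19.3 CPM in celecoxib libraries, 3.79 to 16.2 CPM in rofecoxib libraries and 4.61 to 10.7 CPM in control libraries. Hpgds and their mean level gave r = 0.202 and rho = 0.109 over 24 libraries (permutation p = 0.342 and 0.619, adjusted p = 0.441 and 0.688 over 170 relations), with r = 0.126 without the 2 farthest libraries.

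The Hpgds promoter (RefSeq, GRCm38.p6, minus strand of chr6:65144681-65144980, read 5′ to 3′ along the gene) holds the PU.1 letters, the core sequence of a blood cell factor, at -49 to -42, in capitals.
Hpgds: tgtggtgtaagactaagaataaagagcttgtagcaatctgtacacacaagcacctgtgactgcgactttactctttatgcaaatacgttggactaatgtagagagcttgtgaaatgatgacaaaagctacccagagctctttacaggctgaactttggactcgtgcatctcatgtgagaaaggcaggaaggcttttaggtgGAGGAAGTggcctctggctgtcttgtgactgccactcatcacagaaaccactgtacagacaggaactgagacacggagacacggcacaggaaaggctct
Among all windows 3.20% held these letters, and the window of Ptgs1 held them at -24 to -17.

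Genes that act on prostanoids once they are made completed the picture. Of 9 prostanoid receptor genes 7 were tested, and with rofecoxib 0 passed edgeR's test and 3 reached an unadjusted p under 0.05, with a median log2 fold change of 0.18. Ptger4 averaged 7.92 ± 1.90 CPM with rofecoxib and 5.77 ± 1.04 CPM in control (edgeR adjusted p = 0.0534), and Ptger3 11.4 ± 2.23 CPM and 7.44 ± 1.81 CPM (adjusted p = 0.0675); both code for PGE2 receptors. With celecoxib 0 of 7 passed and 0 reached an unadjusted p under 0.05, with a median of -0.08; Ptgfr, the PGF receptor gene, averaged 1.93 ± 1.01 CPM with celecoxib and 1.33 ± 0.390 CPM in control (adjusted p = 0.381), and Ptger2, another PGE2 receptor gene, 0.585 ± 0.142 CPM and 0.748 ± 0.206 CPM (adjusted p = 0.495). All 5 genes of transport and breakdown were tested and 0 passed in either comparison with control, although all 5 had values above 0 with rofecoxib (median 0.38, 3 at an unadjusted p under 0.05). Ptgr2, a prostaglandin reductase gene, averaged 50.1 ± 14.4 CPM with rofecoxib and 35.6 ± 9.13 CPM in control (edgeR adjusted p = 0.0649), and Abcc4, an exporter gene, 15.5 ± 4.37 CPM and 11.9 ± 1.90 CPM (adjusted p = 0.0970). With celecoxib that list had a median of -0.11 and 0 genes at an unadjusted p under 0.05; Ptgr1, a further reductase gene, averaged 8.40 ± 1.35 CPM with celecoxib and 7.64 ± 0.700 CPM in control, and Ptgr2 30.9 ± 5.85 CPM and 35.6 ± 9.13 CPM (edgeR adjusted p of 0.562 and 0.599).

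Among 5 PGF synthase and carbonyl reductase genes, 2 were tested. Cbr1, which reduces PGE2 to PGF2α, rose with rofecoxib, averaging 16.7 ± 3.61 CPM against 12.3 ± 2.74 CPM in control (log2 fold change 0.45, SE 0.14, edgeR adjusted p = 0.0473), a call kept in 8 of 24 fits with 1 library left out. With celecoxib Cbr1 averaged 12.6 ± 1.81 CPM (edgeR adjusted p = 0.909 against control). Akr1b3, an aldose reductase gene, averaged 84.3 ± 3.81 CPM with celecoxib against 71.2 ± 4.03 CPM in control, a difference of 0.24 (SE 0.07) that edgeR's test did not call (adjusted p = 0.169).

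Among libraries of the same group the 10 genes varied in different company. Over 45 pairs, 4 correlations of group-centred log2 CPM passed a permutation test with Benjamini-Hochberg adjustment, 2 positive and 2 negative. Ptges and Ptgis ran against each other (r = -0.743, rho = -0.741, permutation p = 8e-05 and 0.00025, adjusted p = 0.0036 and 0.0112, r = -0.708 without the 2 farthest libraries). Ptges2 and Ptgds ran together (r = 0.696, rho = 0.599, permutation p = 0.00039 and 0.0054, adjusted p = 0.00877 and 0.0405, r = 0.622 without 2 libraries). Pla2g4a ran with Ptges3 (r = 0.633, rho = 0.615, permutation p = 0.00159 and 0.0028, adjusted p = 0.0204 and 0.0315, r = 0.681 without 2) and against Ptges (r = -0.619, rho = -0.637, permutation p = 0.00181 and 0.00185, adjusted p = 0.0204 and 0.0277, r = -0.522 without 2). The 2 cyclooxygenase genes were not among the 4 pairs. Pla2g4a and Ptgs2 are neighbours on chromosome 1, 138430 bases apart with 1 gene between them in mm9, and their pair was not among the 4 either.

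Against the 17 gene lists that had a level, 38 of 170 relations passed the same test, 26 positive and 12 negative. Ptges tracked endothelial markers (r = 0.782, rho = 0.814, permutation p = 1e-05 and 3e-05, adjusted p = 0.00034 and 0.00102, r = 0.734 without 2 libraries) and ran against smooth muscle markers (r = -0.718, rho = -0.617, permutation p = 0.00028 and 0.00271, adjusted p = 0.00397 and 0.0238, r = -0.580 without 2). Ptges also tracked macrophage markers (r = 0.656, rho = 0.599, permutation p = 0.00254 and 0.00646, adjusted p = 0.0180 and 0.0407, r = 0.506 without 2) and neutrophil markers (r = 0.647, rho = 0.603, permutation p = 0.00297 and 0.00553, adjusted p = 0.0202 and 0.0362, r = 0.493 without 2). All 13 endothelial markers were tested, 3 rose with rofecoxib (Egfl7, Tek and Kdr), and their summed level ran from 850 to 1440 CPM in celecoxib libraries, 789 to 1470 CPM in rofecoxib libraries and 895 to 1140 CPM in control libraries. Ptgs1 also tracked endothelial markers (r = 0.696, rho = 0.586, permutation p = 0.0006 and 0.00483, adjusted p = 0.00729 and 0.0351), but r was 0.525 without the 2 farthest libraries and 0.02 within control. Ptgs2 tracked the list of its regulators (r = 0.714, rho = 0.678, permutation p = 0.00018 and 0.00059, adjusted p = 0.00306 and 0.00772, r = 0.692 without 2). Ptgs2 also ran against brown fat markers (r = -0.550, rho = -0.610, permutation p = 0.00701 and 0.00227, adjusted p = 0.0384 and 0.0214, r = -0.611 without 2).

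**Figure D5:**
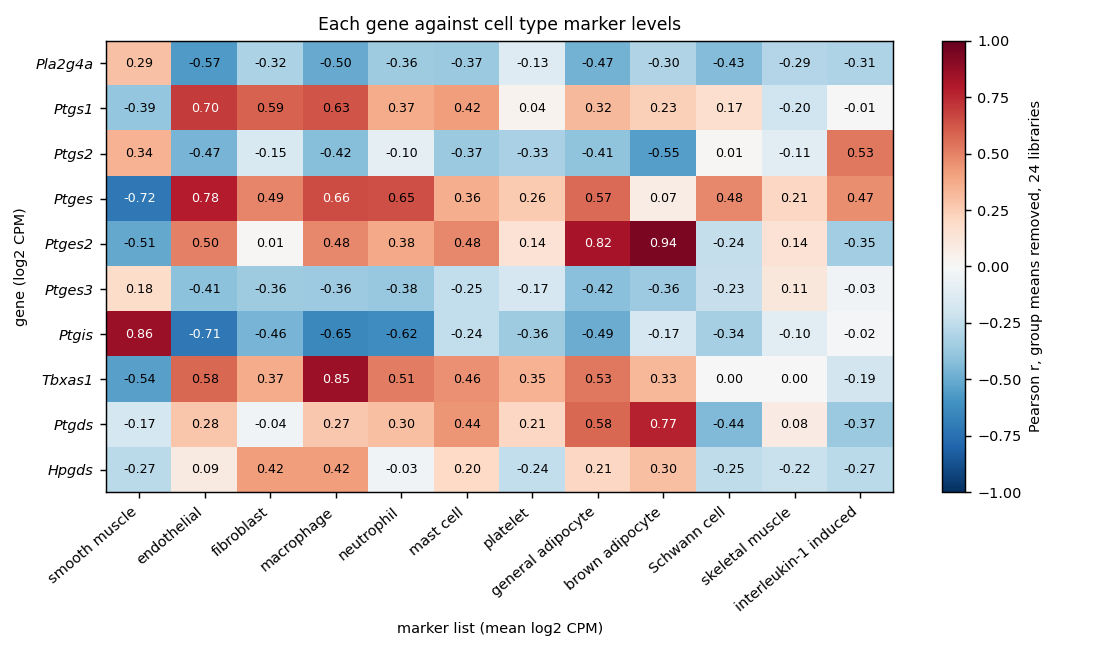
Pearson r between the log2 CPM of each of the 10 genes (rows) and the mean log2 CPM of 11 marker lists and the interleukin-1 induced list (columns), over 24 libraries after group means were removed; red is positive and blue negative. Ptges2 is highest with brown adipocyte markers (0.94), Ptgis with smooth muscle (0.86) and Tbxas1 with macrophages (0.85), and the other columns of these rows are weaker.

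The single genes most like each of the 10, out of 13150 with a mean of at least 1 CPM, are given as a description, by Pearson r of group-centred log2 CPM over 24 libraries, and no test applies to a maximum. Ptgis was most like Adra1d (0.938), Vim (0.925) and Tln1 (0.920), which code for an adrenergic receptor, vimentin and talin. Tbxas1 was most like C1qb (0.857), C1qa (0.843) and Lyz2 (0.842), which code for complement C1q chains and lysozyme. Genes close to Ptges2 included 1700037H04Rik (0.962) and Coq6 (0.961), and Ptgds was most like Ndufb4 (0.900), Entpd5 (0.859) and Chchd3 (0.843). For Ptgs1 they were Cd34 (0.842), Bcap29 (0.826) and Vwf (0.819), and for Ptges C2 (0.900), Slc11a1 (0.898) and Irf8 (0.897). For Ptgs2 they were Lats1 (0.883), Rab21 (0.881) and Zcchc24 (0.872), for Pla2g4a Qser1 (0.817), Tbl1x (0.810) and Slc30a5 (0.797), and for Ptges3 Phf3 (0.877), Celf1 (0.862) and Zfml (0.849). Hpgds, at few reads, reached 0.664 with Spa17, 0.646 with Pi16 and 0.611 with Angptl1.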

How the data were processed

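RNA of the thoracic aorta was sequenced in 24 libraries after polyA selection. The submitters' processing notes name CASAVA 1.8.1, STAR 2.5.1b and genome build mm9. How reads were counted, against which annotation and with what strand setting is not given in the sources used here. Per the labels and the file header, the deposited values are gene counts, in whole numbers, totalling 21668798 to 21700121 counts a library. Totals this alike are unusual for untreated counts, and whether they were made alike before deposit is not given in the sources used here. Depth limits Ptgds, Hpgds and Tbxas1 most.

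From these counts, edgeR 4.0.16 (R 4.3.3) kept 14528 genes by filterByExpr, scaled libraries by TMM (factors 0.946 to 1.07) and fitted 1 mean per group over all 24 libraries. Its quasi-likelihood test was two-sided, adjusted by Benjamini-Hochberg over all genes tested and called at 0.05. Each SE is the log2 fold change divided by the square root of F. Log2 CPM used a prior count of 2. Correlations used log2 CPM minus the group mean and 100000 permutations within groups. Alternatives included DESeq2 1.42.0 and limma 3.58.1. Scripts were tested on simulated data. No 2 libraries of the same group agreed within sampling noise.

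Exon lengths, merged over all transcripts of a gene, came from GENCODE (GRCm38), the counts from mm9. Promoters were found for 9 of 10 genes. From each pathway list, up to 4 called genes, or otherwise 2 values, were named; from marker lists the 2 most abundant, plus called markers, which were chosen after their values were seen. The 10 genes and all lists were chosen with earlier results of these data known. For Ptges2, 1 of the most similar genes is not reported here.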

Additional observations from a re-analysis of the deposited data

Results flagged for a closer look

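Of 30 sets of 8 libraries checked, 1 for each of the 10 genes in each group, 2 held a library far from the others, where the gap to the nearest library exceeded the Dixon critical value of 0.526 of the whole range. Chance flags about 1 in 20 sets. Ptges2 stood at 26.4 CPM in control replicate 4, with a gap of 0.544 of the range; that library also had the highest brown fat marker level of its group (mean log2 CPM 5.93). Without it the log2 fold change of Ptges2 with rofecoxib against control was 0.48 (edgeR adjusted p = 0.0105). Hpgds stood at 1.11 CPM in rofecoxib replicate 7, from 25 reads, with a gap of 0.657 of the range. Without it the log2 fold change of Hpgds with rofecoxib was 0.64 and was no longer called (edgeR adjusted p = 0.109). The part of fat or of read number in these values was not tested.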

How the results depend on the processing

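Between celecoxib and control 0 of 10 genes were called under every alternative and with each library left out. Between rofecoxib and control the 10 genes gave 2 calls with the other group left out of the fit and 0 with no filter on low counts, with each marker covariate set, and within replicates 1 to 4 or 5 to 8. Hpgds was not tested with the other group left out or within replicates 1 to 4. Between celecoxib and rofecoxib they gave 5 with DESeq2 and within replicates 1 to 4, 1 with library size scaling and with limma voom, and 0 with no filter, 2 groups, the replicate block, the covariate sets, and replicates 5 to 8. Leaving out 1 library gave 0 to 7 calls with rofecoxib against control and 0 to 6 between the drugs.

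Over all genes, celecoxib against control gave 110 calls with DESeq2, 121 with voom, 2 with no filter, 45 with 2 groups, 27 with the replicate block, 174 with replicates 1 to 4 and 5 to 8 as a term, 9 and 313 within those sets alone, and 0, 46 and 29 with brown fat and skeletal muscle, with fat, macrophage and Schwann cell, and with smooth muscle and endothelial covariates (0 to 34 on leaving out 1 library). Rofecoxib against control gave 1812, 2448, 557, 897, 1187, 1735, 42 and 401, and 131, 20 and 27, in the same order (358 to 1945). Celecoxib against rofecoxib gave 1419, 862, 0, 0, 0, 939, 2073 and 0, and 0, 0 and 0 (0 to 1997). The cause was not tested. The smooth muscle and endothelial covariates were chosen after seeing the data.

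Signs turned for some genes, none of them called; sets A, B and C are the covariate sets in the order above. For celecoxib against control, Pla2g4a gave -0.173 within replicates 5 to 8, -0.00817 with A and -0.101 with B, and -0.0203 to 0.0823 on leaving out 1 library. Ptgs1 gave -0.0428 with voom, -0.0628 within replicates 1 to 4 and -0.0159 to 0.204 on leaving out 1. Ptgs2 gave 0.0448 and Ptgis 0.166 within replicates 1 to 4. Ptges gave 0.448 within replicates 5 to 8 and 0.231 with B. Ptges2 gave 0.00875 with voom, 0.135 within replicates 5 to 8, 0.073 with A and -0.097 to 0.0397 on leaving out 1. Ptges3 gave -0.00199 within replicates 5 to 8 and -0.000518 with B. Tbxas1 gave -0.245 within replicates 1 to 4 and -0.0364 to 0.14 on leaving out 1. For rofecoxib against control, Ptgs1 gave -0.00771 with C, Ptges3 0.0146 with library size scaling and 0.0245 with B, and Ptgds -0.562 with A and -0.244 with B. For celecoxib against rofecoxib, Ptgs1 gave 0.178 within replicates 5 to 8, 0.224 with B and 0.00773 with C. Set B gave 0.211 for Ptges, -0.025 for Ptges3 and -0.0283 for Ptgis, and A gave 0.00277 for Hpgds.

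Whether replicate numbers pair the libraries was not settled. Over 24 same-numbered pairs r ran from -0.303 to 0.560, 12 were over 0.1, and 6 libraries correlated best with their own number. No test was run on these values, so they do not exclude a pairing or a batch shared by number. The replicate block gave 4 calls among the 10 genes for rofecoxib against control, without Ptgis (edgeR adjusted p = 0.0616), and 0 between the drugs (adjusted p = 0.0864 for Pla2g4a). Low counts limit Ptgds, Hpgds and Tbxas1.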
